A study of Mus musculus with 5 samples.

Results

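Of 7 monocyte genes measured in whole liver, Cx3cr1 differed most between mice given an antibody against CSF1R and their controls, with a treated intensity 0.674 times that of controls. The other 6 differed by 0.21 or less on the log2 scale, and the 95% interval of each included 0. None of the 7 passed an adjusted p of 0.05. The genes were chosen by name, as Cx3cr1, Spn, Treml4 and Ace for patrolling monocytes and Plac8, Ms4a4c and S100a4 for classical ones. They are 7 of 18820 genes with a probe set of a single gene symbol, and each of the 7 had exactly 1 such probe set.

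The livers came from adult C57Bl/6 mice. The control group, with 3 samples, received a rat IgG control, and the treated group, with 2 samples, received M279, an antibody against CSF1R. In both groups 300 µg was injected into the peritoneal cavity 3 times a week for 6 weeks. The labels name no transgene or deletion. They do not say whether a sample came from 1 animal or from several, so the p-values speak for the spread among these 5 samples alone, which may be technical. Each sample was hybridised to 1 array. The number of arrays limits the precision, with a median standard error (SE) of 0.138 for a log2 difference. Median intensity lay between 32.5 and 33.9 on the 5 arrays, and the hepatocyte gene Alb, for serum albumin, lay between 13.09 and 13.20 on the log2 scale in these livers.

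Monocytes are blood cells of the myeloid lineage that arise in the bone marrow. In mice, classical monocytes carry much Ly6C on their surface and enter inflamed tissue, where they can become macrophages. Patrolling monocytes carry little Ly6C and much CX3CR1, crawl along the inside of small vessels and arise from classical ones with the help of the transcription factor NR4A1. Signals through CSF1R, the receptor for CSF1 and IL-34, are known to sustain the patrolling subset more than the classical one. A liver sample that still holds blood and its sinusoids contains monocytes beside Kupffer cells, the resident macrophages, and other leukocytes. None of the 7 genes is restricted to monocytes.

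The question was how these genes differed between the treated and control livers. Cx3cr1 encodes the receptor for fractalkine. Its log2 intensity was 4.71, 4.98 and 4.68 on control replicates 1, 2 and 3, and 4.12 and 4.33 on treated replicates 1 and 2. Each value lay under the median of its array, and whether Cx3cr1 lies above background is not known. Both treated arrays lay under every control, with a gap of 0.35 between the groups, which exceeds the range of 0.30 among the controls. The control mean was 4.79 ± 0.16 (SD, n = 3) and the treated mean 4.22 ± 0.15 (SD, n = 2). The difference was -0.57 ± 0.14 (SE), with a 95% interval from -0.91 to -0.22. In limma's moderated test Cx3cr1 had an unadjusted p of 0.0069 and an adjusted p of 0.193, over the 35556 probe sets. The unadjusted p was under 0.05 for 18.4% of all probe sets. In bulk liver, fewer cells that carry the transcript and less transcript per cell cannot be told apart.

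Spn encodes CD43, a sialylated surface protein of patrolling monocytes that T cells and other leukocytes also carry. It measured 3.90, 4.51 and 3.82 on the control arrays, and 4.32 and 4.21 on the treated arrays. Both treated arrays lay within the range of the controls, between the highest control and the other two. The difference was 0.19 ± 0.22 (SE), with a 95% interval from -0.36 to 0.73 (limma, adjusted p = 0.635). Without control replicate 2 it was 0.40, and without control replicate 3 it was 0.06.

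Treml4, a receptor of the TREM family, measured 6.769, 7.221 and 7.001 on the control arrays, and 6.690 and 7.147 on the treated arrays. Treated replicate 1 lay just under the lowest control and treated replicate 2 near the highest. The difference of -0.08 ± 0.20 (SE) had a 95% interval from -0.56 to 0.40 (limma, adjusted p = 0.829). Its direction turned to 0.15 without treated replicate 1 and to 0.03 without control replicate 2, and with arrays normalized by quantiles it was 0.06.

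Ace encodes angiotensin-converting enzyme, which endothelial cells also make. It measured 4.92, 5.04 and 5.01 on the control arrays, and 5.08 and 5.05 on the treated arrays. The treated arrays lay above all controls, but by only 0.0044 on the log2 scale. The difference was 0.07 ± 0.10 (SE), with a 95% interval from -0.18 to 0.33 (limma, adjusted p = 0.693). That interval is the narrowest of the 7, and its lower end corresponds to 0.882 times the control intensity.

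Of the classical genes, Plac8 and Ms4a4c varied widely between arrays of the same group, and S100a4 less. Plac8 encodes a small cysteine-rich protein of myeloid and lymphoid cells. Its values were 5.43, 5.93 and 5.72 on the control arrays, and 5.19 and 6.17 on the treated arrays. The treated arrays held both the lowest and the highest value of the 5, 0.99 apart. The difference was -0.01 ± 0.31 (SE), with a 95% interval from -0.77 to 0.74 (limma, adjusted p = 0.981). Without treated replicate 1 it was 0.48, and without treated replicate 2 it was -0.51.

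Ms4a4c encodes a 4-transmembrane-span protein of the MS4A family. It measured 5.08, 6.02 and 5.13 on the control arrays, and 5.06 and 5.49 on the treated arrays. Control replicate 2 stood apart from the other arrays, and the groups overlapped. The difference was -0.13 ± 0.31 (SE), with a 95% interval from -0.90 to 0.63 (limma, adjusted p = 0.819). It turned to 0.17 without control replicate 2 and to 0.08 without treated replicate 1. The paralogue Ms4a4b, better known from T cells, was at -0.07 ± 0.17.

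S100a4 encodes a calcium-binding protein of monocytes, T cells and fibroblasts. Its values were 4.50, 4.17 and 4.24 on the control arrays, and 3.98 and 4.22 on the treated arrays. Treated replicate 1 was the lowest of the 5, while treated replicate 2 lay between control replicates 2 and 3. The difference was -0.21 ± 0.15 (SE), with a 95% interval from -0.57 to 0.15 (limma, adjusted p = 0.444). Without treated replicate 1 it was -0.09, and without treated replicate 2 it was -0.33. The related gene S100a6, another calcium-binding protein, was at 0.44 ± 0.15, the opposite direction (limma, adjusted p = 0.231), or 0.24 without treated replicate 1.

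**Figure D1:**
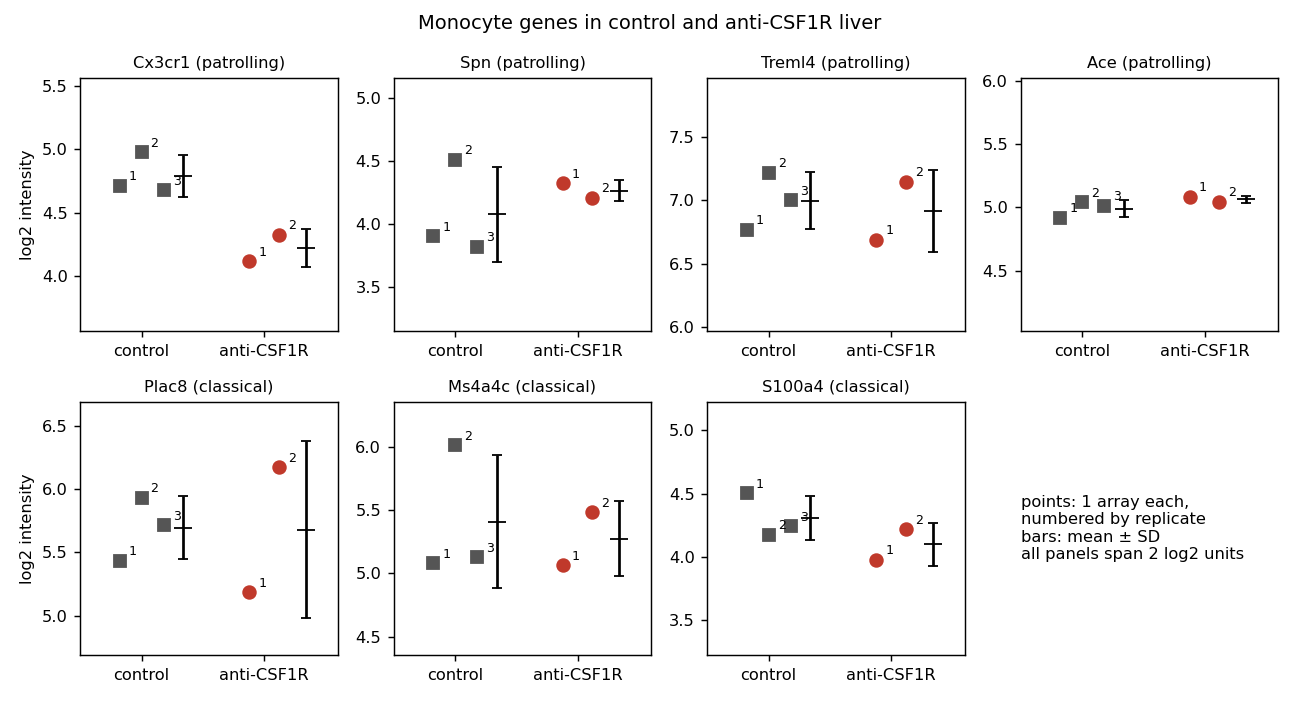
Log2 intensity of the 7 monocyte genes on each array, with control arrays as squares and anti-CSF1R arrays as circles, numbered by replicate; bars give the mean ± SD (3 control and 2 treated arrays) and every panel spans 2 log2 units. The 2 treated arrays of Cx3cr1 lie under all controls, while for Plac8 they hold both the lowest and the highest value.

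As a group, 5 of the 7 genes had a lower mean in treated liver, as 42.8% of all probe sets did, and 2 a higher one, and 0 passed the adjusted threshold in limma (background over all probe sets 0%). Only Cx3cr1 was under 0.05 before adjustment, where 18.4% of all probe sets were. The median of the 7 differences was -0.08, against a median of 0.04 over all 18820 genes. Treated and control arrays did not overlap for 2 of the 7, Cx3cr1 and Ace, in opposite directions, whereas 41.2% of all probe sets had groups apart, 16.9% with treated liver lower and 24.3% with it higher. The share among the 7 is not above that background. Without control replicate 2, groups were apart for 4 of the 7, with Spn higher and S100a4 lower as well, against 51.8% of all probe sets.

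Single arrays carried much of the variation. Control replicate 2 held the highest control value for 6 of the 7 genes, all but S100a4, while it was the highest control for 34.6% of all probe sets. Averaged over the 4 patrolling genes, that array stood 0.22 above the control mean, and over the 3 classical genes 0.24 above it. Treated replicate 1 stood at -0.16 for the patrolling and -0.39 for the classical genes, and treated replicate 2 at -0.03 and 0.16. The patrolling genes were thus higher than the classical ones, relative to controls, on treated replicate 1 (by 0.23) and lower on treated replicate 2 (-0.19). The 2 treated livers gave no common order of the subsets, and with genes this few the contrast was not tested.

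**Figure D2:**
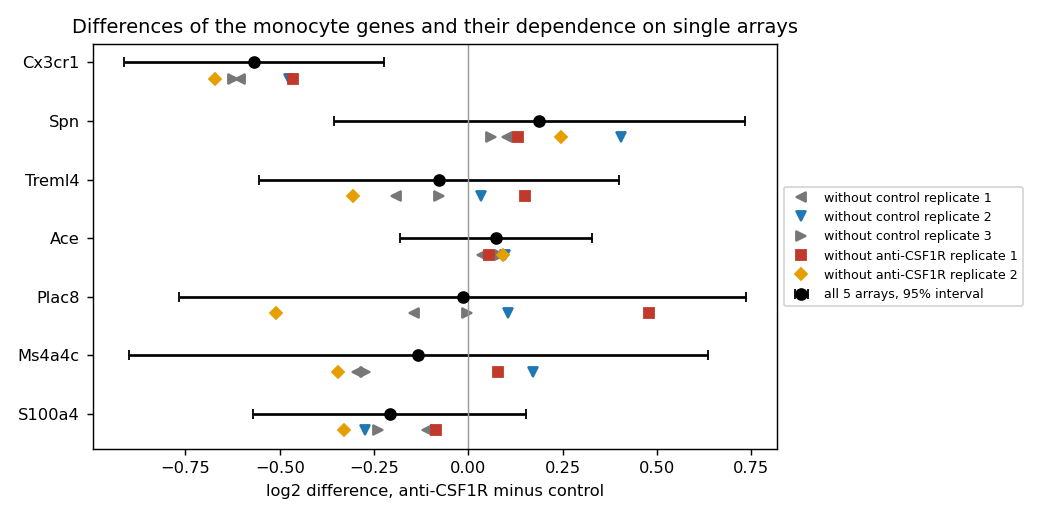
Log2 difference between anti-CSF1R and control liver for each gene, with its 95% interval from limma over all 5 arrays (black) and the value when 1 array was left out (coloured symbols). Cx3cr1 stays between -0.67 and -0.46 in every case, while Treml4, Plac8 and Ms4a4c take values on both sides of 0.

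Other genes tied to patrolling monocytes gave a mixed picture. Of 13 listed, 11 were measured by a probe set of their own, with 0 past the adjusted threshold in limma. Of the 11, 9 had a lower mean in treated liver and 2 a higher one, where 42.8% of all probe sets had a lower mean. Before adjustment 3 were under 0.05, all of them lower, where 8.34% of all probe sets were. That count was 0 with quantile normalization, 0 without treated replicate 1, and 1 without control replicate 2 or 3. The median difference was -0.26. Without control replicate 1, control replicate 2 or treated replicate 2 it was -0.14 in each case.

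The 3 of smallest p were the integrin subunit Itgal, the Fc receptor Fcgr4 and the adhesion receptor Adgre4. Itgal measured 6.85, 6.81 and 6.58 in controls and 5.92 and 6.42 in treated liver, a difference of -0.58 ± 0.18 (SE; limma, adjusted p = 0.219). Fcgr4 measured 6.35, 7.01 and 6.67 in controls and 5.63 and 6.29 in treated liver, a difference of -0.71 ± 0.26 (adjusted p = 0.245 in limma). Adgre4 measured 6.52, 6.86 and 6.72 against 6.31 and 6.41, a difference of -0.34 ± 0.13. In each of them both treated arrays lay under all controls, as for Cx3cr1 and for 16.9% of all probe sets. These 3 were picked for a small p, which favours groups that lie apart. Of the 11 measured, 4 had groups apart, 3 lower and 1 higher, against 41.2% of all probe sets. Without treated replicate 1, Fcgr4 was at -0.39, Itgal at -0.33 and Adgre4 at -0.29. With quantile normalization Adgre4 was at -0.19. Nr4a1, which encodes the factor needed for the subset, ranged from 5.75 to 8.21 among controls, and its difference of -0.56 was smaller than its SE of 1.00.

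Other genes tied to classical monocytes did not move one way. Of 13 listed, 11 were measured, with 6 higher and 5 lower, a median of 0.09 and 0 past the adjusted threshold in limma. Over all probe sets 42.8% were lower. Unadjusted p was under 0.05 for 4, of which 2 were higher and 2 lower, and for 18.4% of all probe sets. With quantile normalization, or without control replicate 2, it was under 0.05 for only 1, which was higher. Without treated replicate 2 the median difference was -0.07. It was -0.13 over the 9 genes left without the dimmest 25% of probe sets, and -0.70 over the 2 above the median level, Ms4a6c and Thbs1. These filters also took the median over all probe sets from 0.05 to -0.01 and -0.09. The chemokine receptor Ccr2, which brings classical monocytes out of the marrow, was nearly level at 0.09 ± 0.10. It measured 4.30, 4.27 and 4.34 in controls and 4.40 and 4.39 in treated liver, so both treated arrays lay above all controls, by 0.05. The proteoglycan gene Vcan (0.54 ± 0.19) and S100a6 were also higher on both treated arrays than on all controls. Vcan was among the dimmest 25% of probe sets, at 2.46, 3.06 and 2.72 in controls and 3.39 and 3.18 in treated liver. Whether it lies above background is not known. Ms4a6c was lower on both treated arrays than on all controls, at -0.82 ± 0.30, or -0.46 without treated replicate 1. So was Thbs1, at -0.58 ± 0.23. The groups of 5 of the 11 did not overlap, 3 higher and 2 lower, near the background of 41.2%. Ly6c2, which is widely used to mark these cells, was not analysed here, since no probe set was named for it alone.

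**Figure D3:**
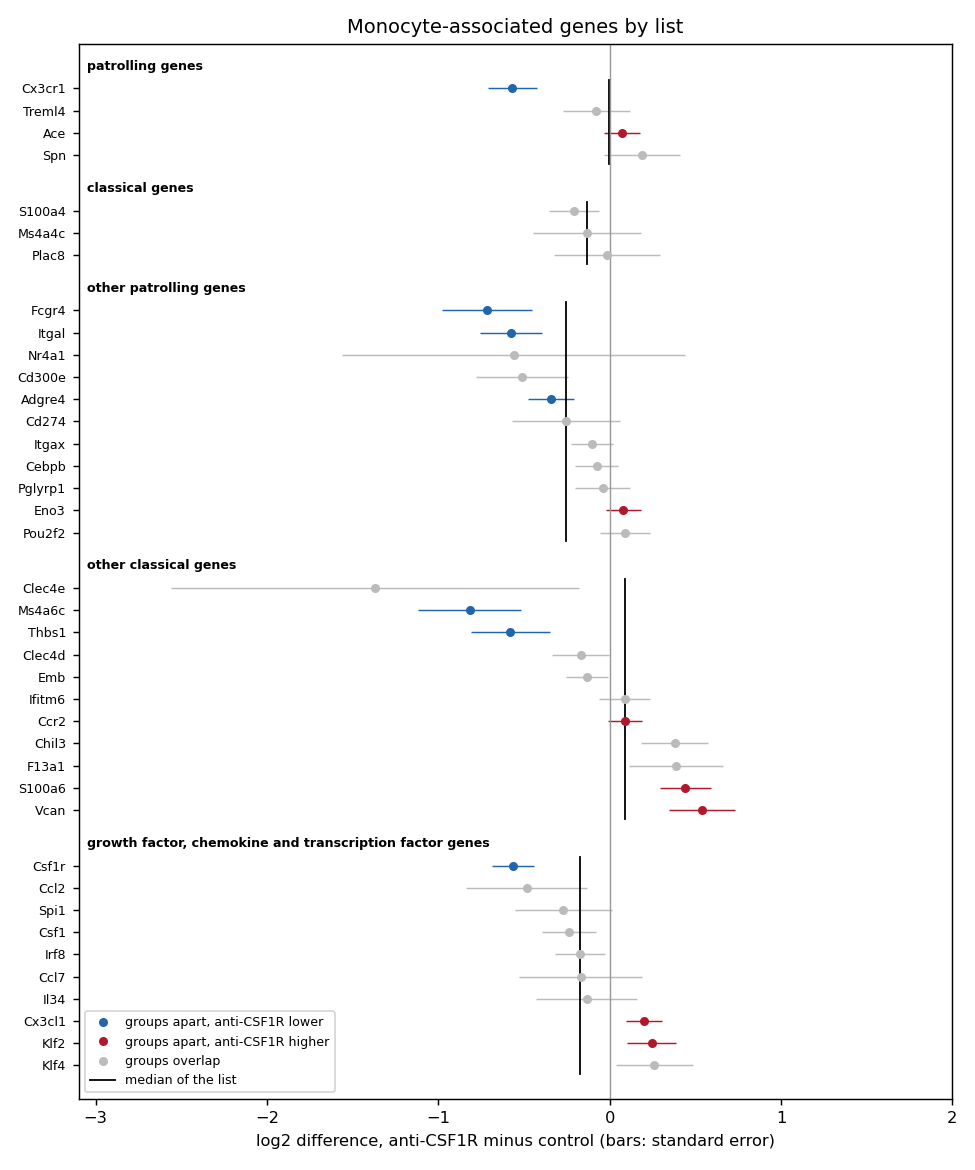
Log2 difference (± SE) of each measured gene of the monocyte lists, coloured by whether both anti-CSF1R arrays lay under all controls (blue), above all controls (red) or overlapped with them (grey), with the median of each list as a vertical line. The other patrolling genes have a median of -0.26 and the other classical genes one of 0.09, or -0.34 and -0.70 (2 genes left) without probe sets under the median level. That filter also took the median over all probe sets from 0.05 to -0.09.

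Among 10 growth factor, chemokine and transcription factor genes of the monocyte lineage, 7 had lower and 3 higher means, with a median of -0.17. The mean was lower for 42.8% of all probe sets. In limma 0 passed the adjusted threshold. Before adjustment 1 was under 0.05, Csf1r, where 18.4% of all probe sets were. Without treated replicate 1 the median was 0.0567. Csf1r itself, the receptor that the antibody binds, measured 8.49, 8.68 and 8.61 in controls and 7.93 and 8.12 in treated liver. Its difference of -0.56 ± 0.12 (SE; limma, adjusted p = 0.191) was close in size to that of Cx3cr1. The fractalkine gene Cx3cl1, which encodes the ligand of CX3CR1, was at 0.20 ± 0.10, and its treated arrays (5.59 and 5.52) lay above all controls (5.29 to 5.42). The lineage factors Spi1 (-0.27 ± 0.28) and Irf8 (-0.17 ± 0.14) overlapped between the groups. Klf2, a transcription factor of monocytes and endothelium, was at 0.25 ± 0.14.

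Markers of other cells that carry some of these transcripts were read beside them. Kupffer cell markers, 8 in all, averaged -0.28 on treated replicate 1 and 0.12 on treated replicate 2, and 0.13 on control replicate 2, relative to the control mean. Of the 8, 6 were lower in treated liver and 2 higher, where 42.8% of all probe sets were lower. The median of the 8 was -0.18. Vsig4 (-0.12 ± 0.18) and Clec4f (-0.25 ± 0.14) overlapped between the groups. Both treated arrays lay under all controls for Cd163 (-0.80 ± 0.16) and Adgre1 (-0.48 ± 0.18), as for Cx3cr1, and above them for Marco (1.34 ± 0.17). Groups were apart for these 3 of the 8, against 41.2% of all probe sets. The 12 markers of T and NK cells and the 5 measured markers of B cells stood highest on treated replicate 2, at 0.21 and 0.19. On control replicate 2 they were at 0.10 and 0.11. The summed intensity of the T and NK cell markers ran from 247 to 295 in controls and was 267 and 319 in treated liver, that of B cells 167 to 189 against 156 and 210, and that of Kupffer cells 2627 to 3078 against 2209 and 2941. Control replicate 2 and treated replicate 2 were the highest arrays for Plac8, Ms4a4c and the patrolling gene Treml4. Those arrays were also high for these leukocyte and macrophage lists. The part of such cells in the values of the 7 genes was not tested.

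Of the 12 T and NK cell markers 9 were higher and 3 lower in treated liver, where 42.8% of all probe sets were lower. Cd4 was at 0.08 ± 0.15, Nkg7 at 0.33 ± 0.28 and Cd2 at 0.31 ± 0.14. Without treated replicate 2, Nkg7 was at 0.018 and Cd2 at 0.14. Of the 5 measured B cell markers 3 were higher and 2 lower, with Cd79b at 0.06 ± 0.20, Cd79a at -0.08 ± 0.22 and Pax5 at 0.39 ± 0.12. Of 9 measured neutrophil markers 6 were higher and 3 lower, among them S100a9 (0.31 ± 0.10), Elane (0.33 ± 0.10) and Csf3r (0.00 ± 0.20), and their summed intensity was 156 to 178 in controls and 185 and 201 in treated liver. Dendritic cell markers, 7 in all, of which 5 were higher and 2 lower with a median of 0.12, summed to 218 to 260 in controls and to 220 and 224 in treated liver, with Clec9a at -0.42 ± 0.20, Ccr7 at -0.13 ± 0.17 and Zbtb46 at 0.23 ± 0.10.

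Among cells of the vessel wall and tissue, the 8 endothelial markers had a median of -0.13 and summed to between 1998 and 2035 in controls, 1940 on treated replicate 1 and 1703 on treated replicate 2. Of these markers 6 were lower in treated liver and 2 higher, where 42.8% of all probe sets were lower. Among the lower ones were Stab2 (-0.15 ± 0.13), Cdh5 (-0.29 ± 0.15) and Erg (-0.22 ± 0.10). Ace, which endothelium also transcribes, was slightly higher, like 2 of the 8 markers. The 7 fibroblast and stellate cell markers had a median of 0.02, with 4 higher and 3 lower in treated liver. Dcn was at 0.02 ± 0.10 and Lrat at 0.36 ± 0.12. The 7 summed to 2934 to 3119 in controls against 3221 and 2964. The 7 measured hepatocyte markers had a median of -0.01, with 3 higher and 4 lower. Alb was at 0.00 ± 0.10, Apoa1 at -0.01 ± 0.10 and Tat at -0.29 ± 0.14. No marker of these 8 cell types passed the adjusted threshold in limma. Before adjustment 8 of the 63 measured were under 0.05, where 18.4% of all probe sets were.

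**Figure D4:**
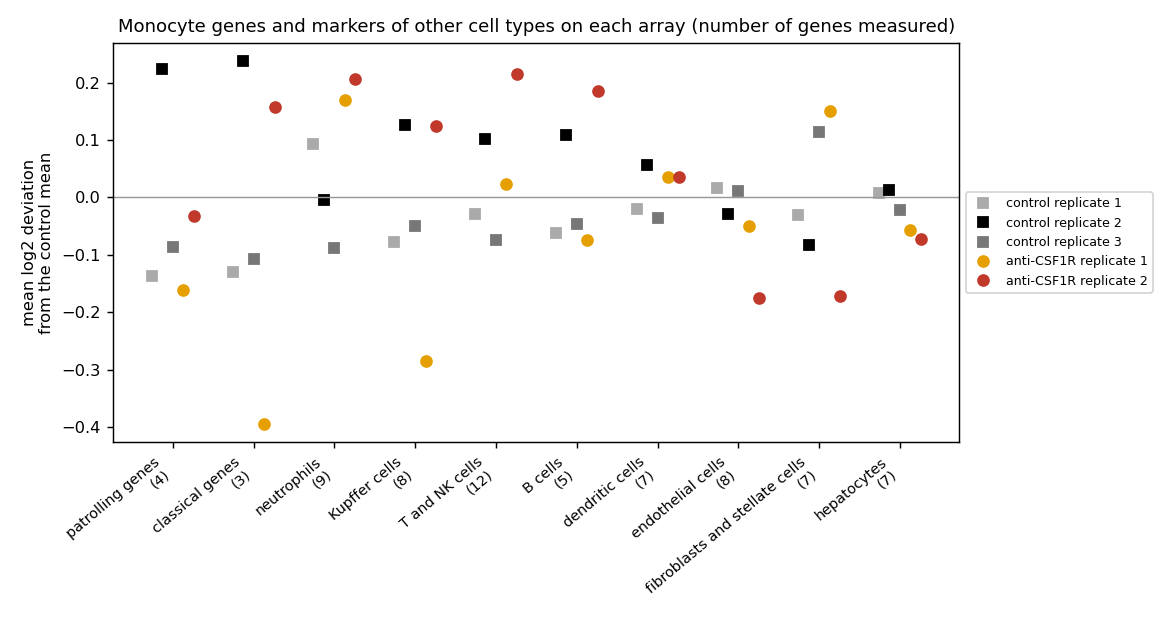
Mean log2 deviation from the control mean on each array, for the patrolling and classical monocyte genes and for markers of 8 other cell types, with the number of genes measured in brackets. Control replicate 2 (black square) and treated replicate 2 (red circle) are high for the classical genes (0.24 and 0.16) and for the Kupffer, T and NK and B cell lists.

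The gene whose pattern lay nearest to each of the 7 was found over the 5 arrays, as the smallest Euclidean distance between log2 values centred on their mean. Nearest to Cx3cr1 was Tmprss2, a transmembrane serine protease gene, at a distance of 0.056, and it measured 5.66, 5.98 and 5.65 in controls and 5.05 and 5.30 in treated liver. Nearest to Plac8, at 0.176, was Tyrobp, which encodes the adaptor DAP12 of myeloid and NK cell receptors, with 8.20, 8.62 and 8.26 in controls and 7.81 and 8.77 in treated liver. Like Plac8, Tyrobp had its lowest and its highest value on the treated arrays, which its choice by distance favours. For the others the nearest genes were Gm10125 for Spn (0.078), Dut for Treml4 (0.040), Ociad1 for Ace (0.030), Anxa13 for Ms4a4c (0.219) and Pde12 for S100a4 (0.050). Each distance describes 5 values set against those of 18820 genes.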

How the data were processed

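Whole liver was kept in RNAlater and its RNA isolated with Trizol; cDNA was amplified by the NuGEN Pico SL method and biotin-labelled, per the labels' protocols. The deposited table gives 1 probe set intensity per array on a linear scale. The values came from Affymetrix Expression Console 1.1, per the submitters' processing notes. How probe sets were summarised, corrected for background and normalized was not given in the sources used here. Whether a dim probe set lies above background is therefore not known.

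Values were log2-transformed as deposited, without filtering. The platform annotation, whose names can be out of date, was used to name probe sets: 21218 had 1 gene symbol, 1881 several, and 12457 were not listed there. Symbols were updated through RefSeq (GRCm38.p6). Of several probe sets for a gene, the one with the highest mean was taken. A two-sided test of limma 3.58.1 (R 4.3.3) compared the groups, using lmFit and eBayes with 3 residual and 3.03 prior degrees of freedom. P-values were adjusted by Benjamini and Hochberg's method over 35556 probe sets. No permutation test was run on single genes, since 2 arrays against 3 allow no exact p smaller than 0.1. In 5 simulated comparisons of 35556 probe sets, limma recovered 74.6% of the 2-fold changes and 98.4% of those of 4-fold, with 79 false calls in all. The simulated arrays were independent, with spreads taken from the moderated fit and no variation shared by a whole array. These shares may therefore not hold for the real arrays, where 0 probe sets passed.

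The 7 genes and the lists were chosen with earlier results of these data known. Named genes were the 7, the 3 of smallest p from each monocyte list, the 2 brightest and the 1 of smallest p from each marker list, the gene nearest in pattern, Csf1r, S100a6 and Ms4a4b. Ccr2, Nr4a1, Spi1, Irf8, Cd163, Adgre1, Thbs1 and Clec4e were added after their values were seen. Alternatives were other normalization, filters, variance models, array weights, a block for the replicate number, and leaving out each array. Figures were drawn with matplotlib 3.10.9.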

Additional observations from a re-analysis of the deposited data

How the results depend on the processing

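None of the 7 genes passed an adjusted p of 0.05 under any alternative run. The lowest adjusted p was 0.084, for Cx3cr1 with 1 probe set per gene, and over its alternatives Cx3cr1 ran from 0.084 to 0.411, always with a lower value in treated liver. A second probe set could not be tried, since each of the 7 has 1. Without probe sets under the median level, 3 of the 7 were tested; Cx3cr1, Spn, Ace and S100a4 lay under that level. With quantile normalization Treml4 was at 0.0607 and Plac8 at 0.0914, and with arrays centred on their medians Plac8 was at 0.0229. When 1 array was left out, Treml4 ran from -0.31 to 0.15, Plac8 from -0.51 to 0.48, Ms4a4c from -0.34 to 0.17, and the median of the 7 from -0.33 to 0.10. Groups were apart for 4 of the 7 genes without control replicate 2, an alternative chosen after seeing the data.

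The median of the other patrolling genes was -0.34 without probe sets under the median level and ran from -0.33 to -0.14 when 1 array was left out. For the other classical genes, with fewer genes tested, it was -0.13 when the dimmest 25% of probe sets were left out and -0.70 without those under the median. Over all probe sets the median was 0.05 in the main fit and -0.01 and -0.09 with these filters. The median of the growth factor, chemokine and transcription factor genes ran from -0.28 to 0.0567 when 1 array was left out. Marco was 1 of 14 genes, out of 18820, that passed with 1 probe set per gene, while 0 passed in the main fit over all probe sets.

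Other genes near 0 changed sign. With quantile normalization Alb was at -0.0100, Anxa13 at 0.0879, Csf3r at 0.0257, Dcn at -0.0520 and Dut at 0.0566, with centred arrays Anxa13 was at 0.0247, Apoa1 at 0.0322 and Csf3r at 0.0356, and with array weights Anxa13 was at 0.0234 and Csf3r at 0.0402. When 1 array was left out, Alb ran from -0.0328 to 0.0349, Anxa13 from -0.19 to 0.22, Apoa1 from -0.0484 to 0.0373, Ccr7 from -0.24 to 0.0141, Cd4 from -0.0044 to 0.20, Cd79a from -0.46 to 0.29, Cd79b from -0.26 to 0.38, Csf3r from -0.25 to 0.24, Dcn from -0.0266 to 0.0568, Dut from -0.31 to 0.18, Ms4a4b from -0.19 to 0.0696, Tyrobp from -0.55 to 0.41 and Vsig4 from -0.35 to 0.11. Where single arrays or normalization turned a direction, the cause was not tested.

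Replicate numbers are shared by 2 arrays of each group. Deviations of same-numbered arrays from their group means correlated at 0.027 and 0.033 over probe sets. Those of the 2 treated arrays are mirror images of each other, so these values cannot decide whether the numbers pair the samples. With the replicate number as a block, Cx3cr1 was at -0.62 (limma, adjusted p = 0.362) and Alb at -0.0227, and 0 of the 7 passed.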

Other observations

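Control replicate 2 carried a single high value of Clec4e, a C-type lectin receptor of activated monocytes and neutrophils: 6.91 on the log2 scale there, against 3.08 and 2.99 on the other controls and 3.24 and 2.67 on the treated arrays.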
